A study of Mus musculus with 10 samples.

Results

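Oxytocin and vasopressin, the 9-residue hormones of the paraventricular hypothalamus (PVH), and their receptors were followed through 706 single cells. The members were listed by symbol: the hormone genes *Oxt* and *Avp*, and the receptor genes *Oxtr*, *Avpr1a*, *Avpr1b* and *Avpr2*, 6 of 48397 genes in the count table. The cells were picked by hand from brain slices of male Agrp-IRES-Cre × Ai9 mice more than 7 weeks old, in which cells that use the *Agrp* promoter make the red protein tdTomato. All plates shared 1 genotype and 1 preparation, with pronase and the activity blockers TTX, APV and DNQX in the slice bath, so no treatment was compared. The labels describe the picked cells as labelled neurons, whereas the study's methods use the labelled AGRP axons to mark the border of the PVH.

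The cells lay on 10 plates, named Q5 to Q8, AL5, AL6 and JM5 to JM8, with 43 to 87 cells each. The plate was the replicate, and which animal gave which plate is not stated, so tests over plates measure the spread between plates. The deposited annotation divides the cells into 15 clusters, of which clusters 5, 6 and 11, with 42 cells, were set aside as lying outside the PVH, leaving 664 cells in 12 PVH clusters. A cell held 50646 to 1078101 unique molecular identifiers (UMIs, tags that mark single cDNA molecules), with a median of 128672, and the Q plates were deeper than the others. No cell name occurred on more than 1 plate, and no pair of cells had identical counts. The neuronal gene *Snap25* had a UMI in 98.2% of PVH cells, the glutamatergic marker *Slc17a6* in 80.4%, *Sim1*, a PVH transcription factor, in 59.9%, and the inhibitory marker *Slc32a1* in 0 of 664.

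Oxytocin and vasopressin are made as precursors together with a neurophysin, the carrier from which the hormone is cut inside secretory granules. Magnocellular neurons of the PVH send them to the posterior pituitary, from which oxytocin drives milk ejection and labour and vasopressin saves water in the kidney, while parvocellular neurons release them within the brain. *Oxtr* encodes the oxytocin receptor. *Avpr1a* encodes the V1a receptor of brain, liver and vessel wall, *Avpr1b* the V1b receptor of pituitary corticotrophs, and *Avpr2* the V2 receptor of the kidney collecting duct. The oxytocin, V1a and V1b receptors signal mainly through Gq and phospholipase C, and the V2 receptor through Gs and cyclic AMP.

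The hormone genes are neighbours that face each other. In the GENCODE annotation of GRCm38.p6, *Oxt* lies on the plus strand at chr2:130576173-130577054 and *Avp* on the minus strand at chr2:130580620-130582554, with 3565 bases between them. Each has 3 exons, in transcripts of 537 and 577 bases. The exonic stretch that encodes the hormone itself shows how near the genes are in sequence, 22 of 27 bases being identical, with the differing bases in capitals.
Oxt, coding bases 58 to 84: tgctacAtccagaactgcccCCTGggc
Avp, coding bases 70 to 96: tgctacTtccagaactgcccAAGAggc
Counted from 1 at the first base of this stretch, with the *Oxt* base first, the substitutions are A7T, C21A, C22A, T23G and G24A. Further on, within the neurophysin part of the coding sequence, the transcripts share an identical run of 127 bases, shown because a read that falls wholly inside it cannot be given to 1 gene.
Shared run, Oxt transcript bases 156 to 282 and Avp transcript bases 144 to 270: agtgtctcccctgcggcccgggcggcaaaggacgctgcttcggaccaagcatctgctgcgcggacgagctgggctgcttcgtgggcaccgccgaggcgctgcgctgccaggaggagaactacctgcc
This run ends 255 bases before the 3′ end of *Oxt* and 307 bases before that of *Avp*. Of all 50-base windows of the transcripts, 78 were shared, which is 15.98% of those of *Oxt* and 14.8% of those of *Avp*. Of 125-base windows, 3 were shared, 0.726% and 0.662%. The labels give reads of 125 bases for the transcript side, and the methods 50 or 125 bases, so some reads could have been split between the genes; their part in the counts was not tested.

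The other members lie apart in the same build, *Oxtr* at chr6:112473683-112489943 on the minus strand, *Avpr1a* at chr10:122448499-122453452, *Avpr1b* at chr1:131599239-131612000 and *Avpr2* at chrX:73892102-73895502, all on the plus strand. RefSeq promoters of GRCm38.p6, the 250 bases before the RefSeq gene start, were found for 5 of the 6 genes. For *Oxt*, *Avp* and *Oxtr* that start is not the GENCODE start given above. The *Oxtr* window, chr6:112489826-112490075, overlaps the gene as GENCODE places it. Those of the neighbouring hormone genes are shown because only 7.79% of the PVH cells high for either hormone (defined below) were high for both. Capitals mark AGGTCA or its reverse TGACCT, the core of the sites of many nuclear receptors, searched on both strands.
Oxt promoter, chr2:130575919-130576168, plus strand: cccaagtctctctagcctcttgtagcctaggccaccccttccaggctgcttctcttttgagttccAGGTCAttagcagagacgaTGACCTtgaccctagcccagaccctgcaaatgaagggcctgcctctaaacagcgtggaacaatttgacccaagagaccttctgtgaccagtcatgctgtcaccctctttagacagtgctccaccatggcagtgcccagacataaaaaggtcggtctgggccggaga
Avp promoter, chr2:130582589-130582838, minus strand: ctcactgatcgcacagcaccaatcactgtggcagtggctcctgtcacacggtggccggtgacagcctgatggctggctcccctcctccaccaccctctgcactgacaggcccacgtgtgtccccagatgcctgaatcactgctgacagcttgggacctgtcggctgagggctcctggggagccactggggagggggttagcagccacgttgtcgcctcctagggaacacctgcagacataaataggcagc
*Oxt* had 2 matches, 185 and 166 bases before the start, *Oxtr* had 1, and *Avp*, *Avpr1a* and *Avpr2* had 0. Of all 32851 promoters, 14.02% held a match. The cyclic AMP response element TGACGTCA was in none of the 5 and in 1.55% of all. These are matches of letters and not binding sites.

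*Oxt* was the leading hormone of cluster 1. Its level over the 10 plates, in UMIs per 1000000 UMIs of the summed cells (CPM), ran from 36375 through a median of 67338 to 87299, with a mean of 66959 ± 17304 (SD, n = 10). On each plate *Oxt* thus took several percent of all UMIs of these cells, 6.70% ± 1.73 (SD, n = 10). Cluster 12 came next, from 6055 through 12747 to 20956 CPM, with a mean of 12960 ± 5093 (SD, n = 6). The gap between these clusters, 2.42 on the scale of log2(CPM + 1), exceeded the larger SD of the pair, 0.61, and the gap of 3.11 from cluster 12 to cluster 4 exceeded the larger SD of 2.20. Below that, no cluster stood off from its neighbour in the order by more than the larger of their SDs, down to cluster 13 with 98.0 ± 62.8 CPM (SD, n = 3).

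*Avp* led in 3 clusters. In cluster 2 its levels on the plates ran from 58943 through 69434 to 84048 CPM (mean 69364 ± 9925, SD, n = 5), in cluster 4 from 23672 through 54131 to 69251 CPM (50763 ± 16615, n = 5), and in cluster 3 from 30689 through 42761 to 71398 CPM (46024 ± 15341, n = 5). The plate ranges of these clusters overlapped. On the log2(CPM + 1) scale, neighbours in this order did not differ by more than the larger of their SDs. Clusters 2 and 3, at its ends, had means of 16.07 ± 0.20 and 15.43 ± 0.45 on that scale (SD). The next step down, to cluster 10, was 5.15 on the log2(CPM + 1) scale, against a larger SD of 1.48. Cluster 10 had 2097 ± 2814 CPM of *Avp* (SD, n = 7) and cluster 12 had 1572 ± 1579 (SD, n = 6), and they did not differ beyond their spread. In cluster 1, *Avp* ran from 29.7 through 347 to 15085 CPM, with the largest SD of its order, 3.03 on the log2(CPM + 1) scale. The highest plate, Q8, owed its value to 2 cells with 33531 and 44881 *Avp* UMIs.

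**Figure D1:**
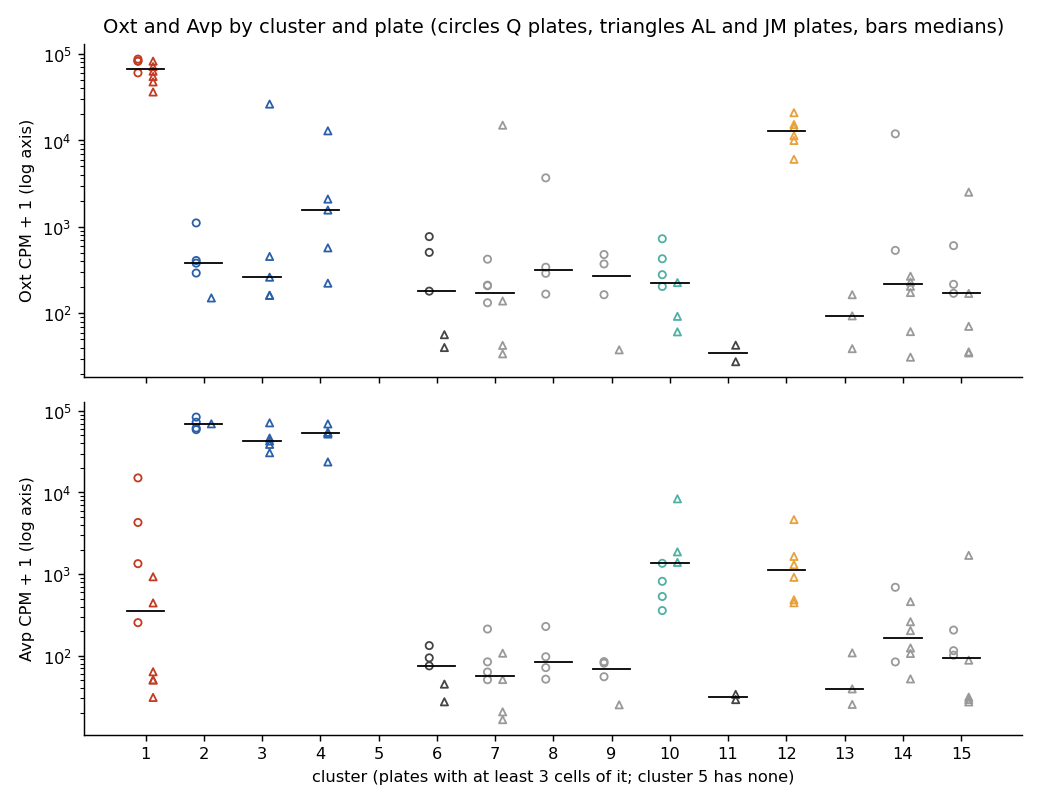
Levels of *Oxt* (top) and *Avp* (bottom) in CPM + 1 on log axes by cluster. Each point is 1 plate with at least 3 cells of the cluster, circles are Q plates, triangles AL and JM plates, and bars medians over plates; *Oxt* in cluster 1 lies between 36375 and 87299 CPM, above each plate of the other clusters.

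Within cells, the hormones parted sharply. The ratio per cell, log2((*Oxt* UMIs + 1)/(*Avp* UMIs + 1)), compares UMI counts of transcripts of similar length and was not divided by length. Its median was 8.81 in cluster 1 and 7.07 in cluster 12, against −7.55 in cluster 2, −7.60 in cluster 3 and −7.25 in cluster 4. *Oxt* exceeded *Avp* in 217 of 221 cells of cluster 1, and *Avp* exceeded *Oxt* in 109 of 111 cells of clusters 2, 3 and 4. Cluster 10 had a median of −1.09, and the medians of the remaining PVH clusters lay between 0.42 and 1.30. In all, 276 of 664 PVH cells held the hormones within 8-fold of each other. Of these, 263 lay in the PVH clusters outside 1, 2, 3, 4 and 12, where counts were low. The median cell there held 22 *Oxt* and 14 *Avp* UMIs.

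**Figure D2:**
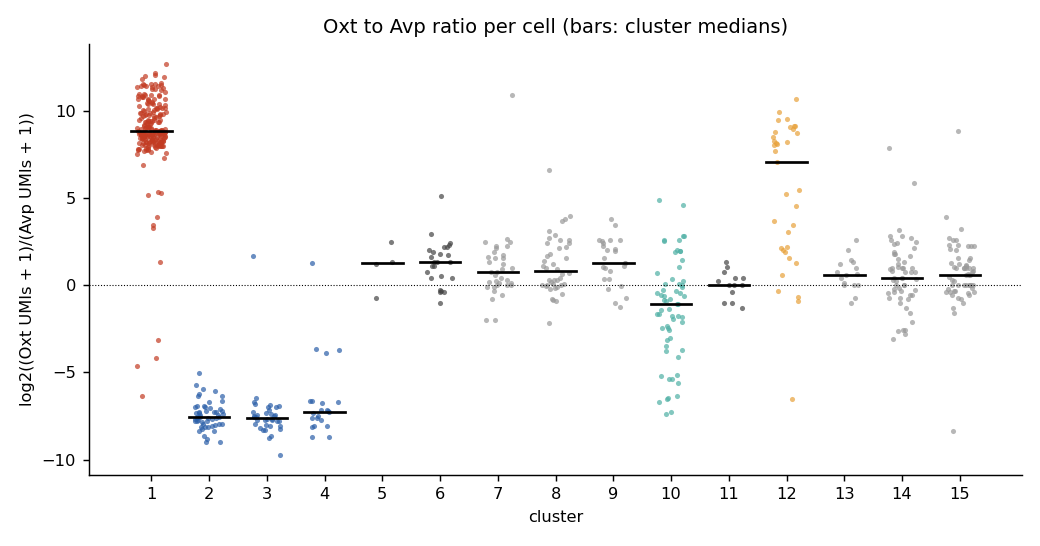
Ratio of *Oxt* to *Avp* UMIs per cell, with 1 added to each, on a log2 scale by cluster. Each point is a cell and each bar the median of the cluster; cluster 1 centres on 8.81 and cluster 2 on −7.55, with 4 cells of cluster 1 below 0.

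The cells that went against their cluster were few. The 4 cells of cluster 1 with more *Avp* than *Oxt* lay on Q plates, with ratios of −6.35, −3.12, −4.62 and −4.17. When each cell was assigned to a cluster again by its nearest profile without the 6 genes, 1 of these 4 stayed in cluster 1, 2 went to cluster 2 and 1 to cluster 4. By the same assignment 215 of 221 cells of cluster 1, 49 of 53 of cluster 2, 33 of 36 of cluster 3, 8 of 22 of cluster 4 and 32 of 35 of cluster 12 returned to their own cluster, and 562 of 664 PVH cells in all.

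The background for hormone UMIs came from control wells in the same pools. Each plate had 8 such wells, of which 4, in rows C, D, G and H of the control columns, held at most 791 UMIs in all and are called low wells here. In the 40 low wells *Oxt* counted 0 to 89 UMIs with a median of 5, and *Avp* 0 to 23 with a median of 2.5. The remaining control wells held 35402 to 312891 UMIs, and what was put into them is not given in the sources used here. They had 0 to 115 *Oxt* UMIs (median 12) and 0 to 34 *Avp* UMIs (median 6). Plates differed, since the low wells averaged 38.1 ± 23.3 *Oxt* UMIs on the Q plates (SD, n = 4) and 3.42 ± 3.11 on the AL and JM plates (SD, n = 6). For *Avp* they averaged 10.8 ± 2.56 and 1.71 ± 2.19.

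The proportion of the hormones in the low wells was set beside that of the whole plate. The log2 ratio of *Oxt* to *Avp* in the low wells minus that of all wells of the plate, control wells included, was −0.14 ± 0.73 (SD, n = 10, from −1.64 to 0.80). It was 0.14 ± 0.27 on the Q plates (n = 4) and −0.33 ± 0.91 on the others (n = 6). The same difference was taken in cells of clusters 7, 8, 9, 14 and 15 with neither hormone high (defined below). It was −0.43 ± 0.73 (SD, n = 10, from −2.16 to 0.40), with −0.07 ± 0.08 on the Q plates and −0.67 ± 0.88 on the others. These cells were chosen by a limit set from the control wells. Their median count was above the mean of the low wells on 9 of 10 plates for *Oxt* and on 10 of 10 for *Avp*. The control wells with larger totals averaged 28.3 ± 34.9 *Oxt* and 8.98 ± 9.85 *Avp* UMIs over plates (SD, n = 10). The medians of the chosen cells averaged 26.65 ± 33.4 and 9.6 ± 9.9, so their counts are not shown to exceed those wells.

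**Figure D3:**
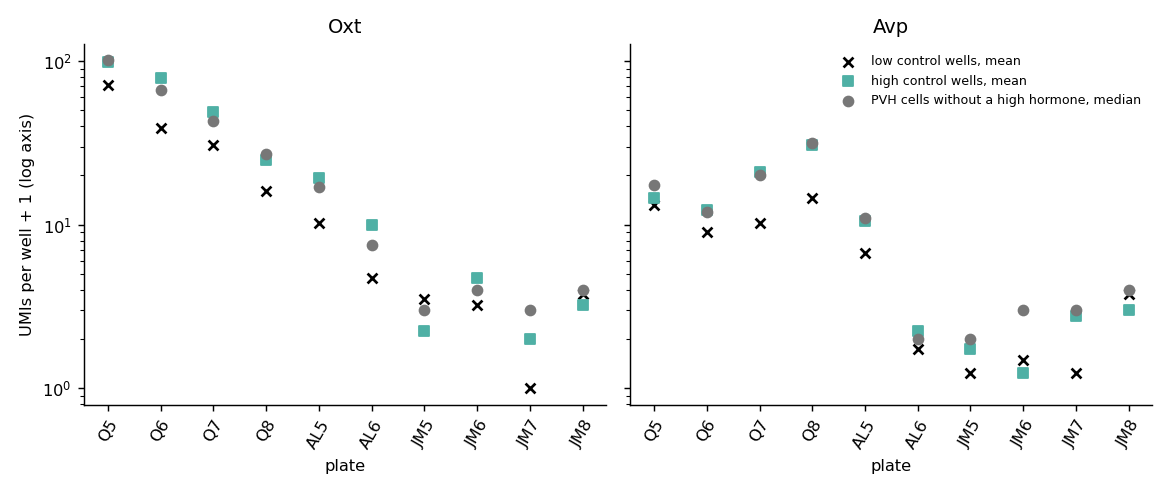
*Oxt* (left) and *Avp* (right) UMIs + 1 per well on log axes for the 10 plates. Crosses are means of the 4 low control wells and squares means of the 4 other control wells. Circles are medians of cells of clusters 7, 8, 9, 14 and 15 in which neither hormone was high. The low wells of the Q plates average 38.1 *Oxt* UMIs and those of the AL and JM plates 3.42.

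PVH cells outside the clusters with the most of a hormone averaged more UMIs of that hormone than the low wells of their plate, which held far smaller totals. For *Oxt* in cells outside clusters 1 and 12, the mean per cell was 144 ± 126 UMIs against 17.3 ± 22.5 in low wells (SD, n = 10 plates). The difference of log2(mean + 1) was 3.39 ± 2.28, higher on 10 of 10 plates (exact sign-flip permutation test, two-sided, p = 0.00195, the smallest that 10 plates allow). With plate medians in place of means it fell to 0.98 ± 0.57. For *Avp* the cells were those outside clusters 2, 3 and 4, a set that holds clusters 1, 10 and 12. The values were 293 ± 465.9 against 5.33 ± 5.16 UMIs. The difference was 4.67 ± 1.39, also on 10 of 10 plates (same test, p = 0.00195), and 1.57 ± 0.62 with medians. On plate Q8 the mean of these cells was 1380 UMIs and the median 37.5. Within batches the *Oxt* difference was 1.78 on the Q plates and 4.47 on the AL and JM plates, and the *Avp* difference 5.06 and 4.41. The low wells held at most 791 UMIs in all and the cells at least 50646, so this test cannot separate the hormones from the total. The part of the total in these differences was not tested, and levels in the control wells with larger totals are given above.

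A cell was called high for a hormone when its UMIs exceeded 10 times the highest of the 8 control wells of its plate plus 1, a limit of 30 to 1160 UMIs for *Oxt* and 20 to 350 for *Avp*, chosen after values were seen. Of 664 PVH cells, 234 were high for *Oxt* alone, 133 for *Avp* alone, 31 for both and 266 for neither. Cells high for both made up 4.67% (95% exact binomial interval 3.19 to 6.56%, counting error only), and 7.79% of the 398 cells high for either, and occurred on 10 of 10 plates. Outside the PVH clusters 0 of 42 cells were high for a hormone. With limits of 5 and 20 times the control wells, the cells high for both numbered 68 and 21, and with a plain limit of 1000 CPM they numbered 26.

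Cluster 12 held the largest share of these double cells among the clusters, 14 of 35 (40.0%, interval 23.9 to 57.9%), on 6 of the 6 plates that had the cluster. Their number was 14 at the 5-fold, 9 at the 20-fold and 8 at the 1000 CPM limit. Cluster 4 had 18.2% at the 10-fold and 36.4% at the 5-fold limit. At 1000 CPM it had 22.7%, beside 22.9% in cluster 12. All cells of cluster 12 lay on AL and JM plates, where the *Avp* limit was 20 to 110 UMIs. On the Q plates that limit was 210 to 350. In the 15 cells of cluster 12 with high *Avp*, its level ran from 504 through 1781 to 23980 CPM, far below the medians of clusters 2, 3 and 4. *Oxt* in the 34 cells of cluster 12 where it was high ran from 587 through 11050 to 54725 CPM, against a median of 77932 CPM in such cells of cluster 1.

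In cluster 1, 210 cells were high for *Oxt* alone, 10 for both and 1 for *Avp* alone. Clusters 2, 3 and 4 had 105 cells with *Avp* alone and 6 with both, 2 of them in cluster 3 and 4 in cluster 4. Among the richest double cells were a cluster 1 cell on plate Q5 with 42307 *Oxt* and 16817 *Avp* UMIs and a cluster 3 cell on plate AL6 with 7667 and 2364. Their totals, 428496 and 123059 UMIs, were within the range of other cells, and whether a well had received more than 1 cell was not tested. Elsewhere, *Avp* was high in 18 of 62 cells in cluster 10, 8 of 57 in cluster 14 and 1 in cluster 15, while 2 cells of cluster 14 and 1 each of clusters 7, 8 and 15 were high for *Oxt*, and 1 cell of cluster 14 belonged to both. In cluster 10 the *Avp*-high cells were 4 of 41 on the Q plates, where the limit was 210 to 350 UMIs, and 14 of 21 on the AL and JM plates, where it was 20 to 110, and they numbered 10 in all at the 20-fold limit.

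**Figure D4:**
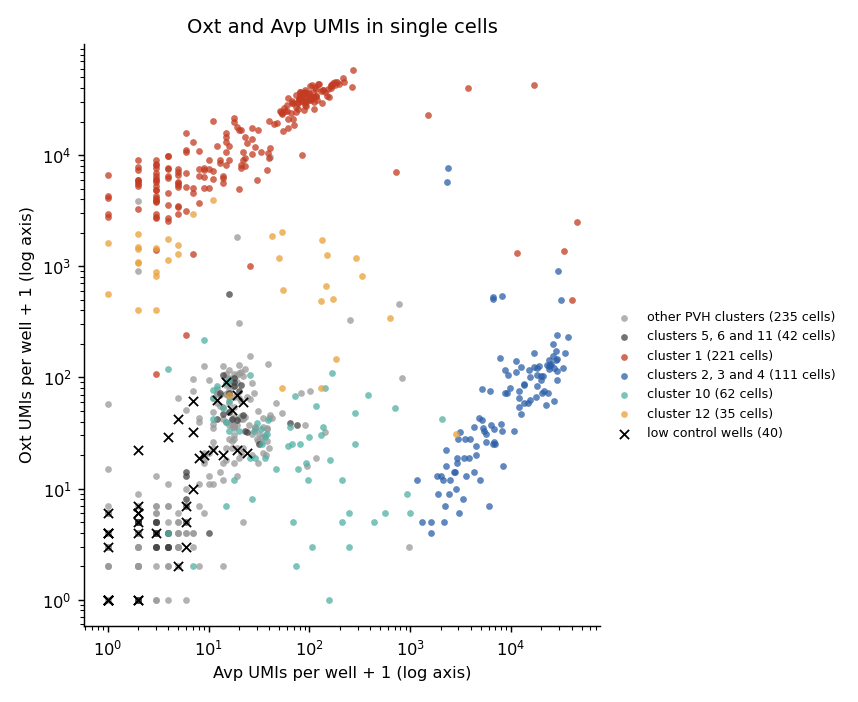
*Oxt* against *Avp* UMIs, each with 1 added, on log axes for 706 cells coloured by cluster, with the 40 low control wells as crosses. Cluster 1 cells lie at the top and cells of clusters 2, 3 and 4 at the right, and cluster 12 cells spread between.

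The lower hormone was set beside the higher one in the cells of the main clusters that were not high for it. In clusters 2, 3 and 4, the median cell held, above the low wells, 4.23 ± 0.91 *Oxt* UMIs per 1000 *Avp* UMIs on the Q plates (SD, n = 4) and 3.65 ± 1.21 on the AL and JM plates (SD, n = 6). In cluster 1 it held 2.75 ± 0.71 *Avp* UMIs per 1000 *Oxt* UMIs on the Q plates and 0.50 ± 0.26 on the AL and JM plates. Over the cells of a plate, the Spearman correlation of the lower with the higher hormone was 0.73 to 0.96 in cluster 1 on the 4 Q plates, and −0.58 to 0.61 on the 6 other plates, where it averaged 0.12 ± 0.43 (SD) and was negative on 3. With the cells high for *Avp* included, it was 0.64, 0.76, 0.93 and 0.27 in cluster 1 on plates Q5, Q6, Q7 and Q8. It was 0.41 to 0.87 in clusters 2, 3 and 4 over 9 plates. These correlations are descriptions over cells of 1 library each, whose total UMIs correlated with the lower hormone as well (cluster 1, Q plates, 0.66 to 0.86). The shared run of sequence, the depth and the hormone RNA of the low wells stand beside this proportion, and their part in it was not tested.

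The batch of the plates, known only from their names, moved with this proportion. The plate median of the *Oxt* to *Avp* ratio in cluster 1 was 8.33 ± 0.32 on the Q plates (SD, n = 4, from 7.99 to 8.63) and 10.2 ± 0.52 on the AL and JM plates (SD, n = 6, from 9.44 to 10.8), without overlap. The difference was −1.86 (exact permutation test over plates, two-sided, p = 0.00476, the smallest that 4 against 6 plates allow). With 10 in place of 1 added to each count it was −0.47 (p = 0.124, same exact test), and the cause of this change was not tested. In cluster 1 cells not high for *Avp*, the median *Avp* count on the AL and JM plates was 5.17 ± 4.96 UMIs (SD, n = 6). The Q plates were also deeper, with 366781 against 100902 UMIs in the median cluster 1 cell, and batch, depth and animals cannot be told apart.

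Between the batches, the summed level of *Oxt* in cluster 1 was 78355 ± 12079 CPM on the Q plates (n = 4) and 59362 ± 16682 on the others (n = 6), with overlap. edgeR's quasi-likelihood test gave a log2 difference of 0.62 ± 0.18 (SE, Benjamini-Hochberg adjusted p = 0.036), in a comparison where 11.1% of genes passed the threshold of 0.05. That call was lost when any of 6 of the 10 plates was left out. For *Avp* in cluster 1 the difference was 4.60 ± 1.43 (adjusted p = 0.085), with 5242 ± 6780 against 260 ± 362 CPM. Over all PVH cells, where 22.7% of genes passed, *Oxt* differed by 0.87 ± 0.46 (adjusted p = 0.22), *Avp* by 0.93 ± 0.46 (adjusted p = 0.19) and *Avpr1a* by 0.15 ± 0.48 (adjusted p = 0.87) in the same test, so no member passed.

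Summed per plate, cluster 1 was set against the other PVH clusters with edgeR's quasi-likelihood test and plate as a block. The clusters were drawn from these counts. Adjusted p-values in this comparison and in that of clusters 2, 3 and 4 are therefore no independent evidence. The members are given from the cells assigned without the 6 genes. The profiles for that assignment came from the same deposited clusters on the other plates, so its adjusted p-values are no independent evidence either. The leading hormone, for which the clusters were singled out, has no test: *Oxt* was higher in cluster 1 by 5.25 ± 0.63 (log2, SE), and *Avp* in clusters 2, 3 and 4 by 7.26 ± 0.49. The other hormone has none either, since the reference holds the clusters singled out for it. *Avp* in cluster 1 was at 2253 ± 4692 CPM with a median of 347, beside 488 ± 406 with a median of 369 in the PVH clusters outside 1, 2, 3, 4 and 12 (SD, n = 10). *Oxt* in clusters 2, 3 and 4 was at 2656 ± 4561 CPM with a median of 521, beside 610 ± 718 with a median of 267 in the same clusters. These levels overlapped between plates. *Avpr1a* was higher in cluster 1 by 1.98 ± 0.44 (adjusted p = 0.0055) and did not pass in clusters 2, 3 and 4, at −2.54 ± 0.90 (adjusted p = 0.093). With the deposited clusters, where 11.9% of genes passed for cluster 1 and 9.17% for clusters 2, 3 and 4, *Avpr1a* passed for cluster 1 (1.93, adjusted p = 0.0065) and not for clusters 2, 3 and 4 (−2.59, adjusted p = 0.11).

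Within batches, with the deposited clusters, *Avpr1a* in cluster 1 was higher in direction but did not pass. The Q plates by themselves gave 2.35 (adjusted p = 0.18, edgeR) and the plates of the other prefixes 1.68 (adjusted p = 0.088). *Oxtr*, *Avpr1b* and *Avpr2* had too few UMIs to be tested.

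*Avpr1a* was the receptor most often seen. It had a UMI in 155 of 664 PVH cells (23.3%, exact interval 20.2 to 26.8%), 109 of them in cluster 1, with 1 to 77 UMIs per such cell and a median of 4. In cluster 1 it was seen in 49.3% of cells (42.6 to 56.1%), and on the plates in 23.5 to 71.4% with a median of 46.5%. Its summed level there was 19.1 ± 8.16 CPM (SD, n = 10), ranging from 7.37 to 32.7, against 6.92 ± 5.77 in the other PVH cells, higher on 10 of 10 plates though the ranges overlapped. Cluster 13 had the highest level, 52.2 ± 29.2 CPM (SD, n = 3), and 8 of its 16 cells held a UMI (24.7 to 75.3%). By plate means of log2(CPM + 1), cluster 13 stood above cluster 1 by 1.38, more than the larger SD of 0.73, while below cluster 1 no neighbours differed beyond their SDs.

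Shares elsewhere were lower. In clusters 2, 3 and 4, *Avpr1a* had a UMI in 8 of 111 cells (7.21%, 3.16 to 13.7%), in cluster 12 in 5 of 35 (14.3%, 4.81 to 30.3%), in cluster 7 in 8 of 35 and in cluster 14 in 9 of 57. In cluster 10 it was seen in 2 of 62 cells, and in cluster 9 in 0 of 25, which allows a share of up to 12%. Among the cells outside the PVH clusters 9 of 42 had it, 7 of them in cluster 6. Of the 40 low wells, 3 held no UMI of any gene and enter the hormone means above as 0. The other 37 had 0 UMIs of any receptor, which allows a share of up to 8.11%, and the other control wells a single *Avpr1a* UMI.

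*Avpr1a* was seen more often in the pooled cells of clusters 1 and 12 than in the other PVH clusters. Most of the pooled cells were of cluster 1, where 109 of 221 (49.3%) had a UMI. In cluster 12 by itself it was 5 of 35 (14.3%, 4.81 to 30.3%), so the difference is not shown for that cluster. Cluster 13, among the other PVH clusters, had 8 of 16 (50.0%). The share of cells with an *Avpr1a* UMI in clusters 1 and 12 was 42.8 ± 18.1% over plates against 10.9 ± 6.42% in the other PVH clusters (SD, n = 10). The difference of 31.9 ± 17.6 points was positive on 10 of 10 plates (exact sign-flip permutation test, p = 0.00195, adjusted over 8 comparisons p = 0.0156). The share in clusters 2, 3 and 4 was 7.63 ± 5.47% against 24.7 ± 12.8% elsewhere, a difference of −17.1 ± 12.3 points, negative on 9 of 10 plates (same exact test, p = 0.00391, adjusted p = 0.0156). That reference includes clusters 1 and 12. In the PVH clusters outside 1, 2, 3, 4 and 12 the share was 12.8 ± 9.02% over plates, or 33 of 297 cells (11.1%, 7.77 to 15.2%), a difference that was not tested. When at least 3 UMIs were asked for, the first difference still passed (20.4 ± 16.7 points, adjusted p = 0.047, same exact test) and the second did not (−11.1 ± 12.4 points, adjusted p = 0.094). On the Q plates alone the first difference was 45.3 ± 5.20 points (n = 4) and on the AL and JM plates 22.9 ± 17.3 (n = 6). By hormone class, *Avpr1a* had a UMI in 46.6% of 234 cells high for *Oxt* alone (40.1 to 53.2%), 25.8% of 31 high for both (11.9 to 44.6%), 11.3% of 266 high for neither (7.74 to 15.7%) and 6.02% of 133 high for *Avp* alone (2.63 to 11.5%).

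**Figure D5:**
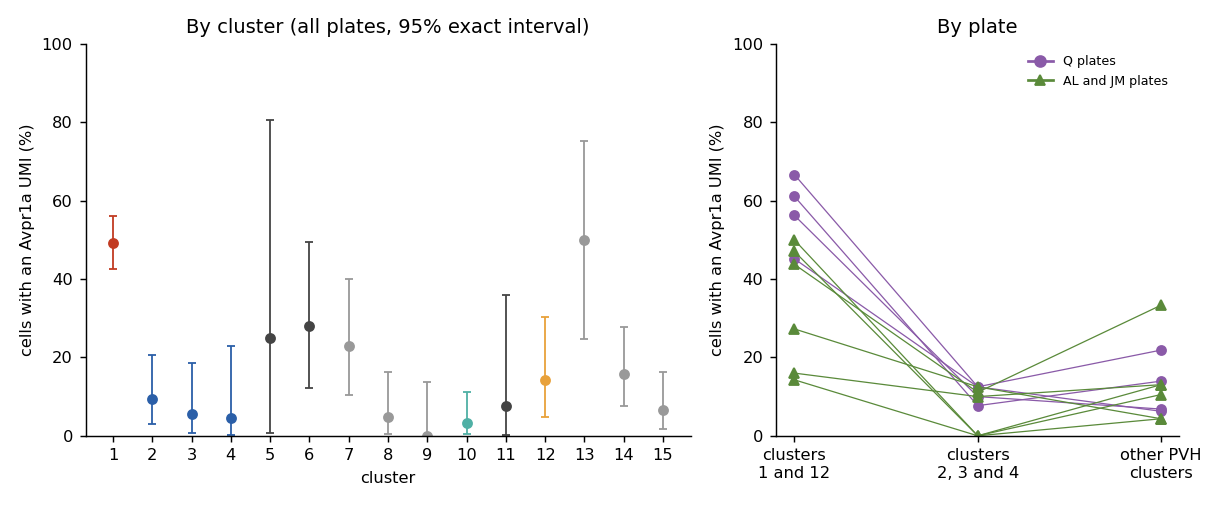
Percent of cells with at least 1 *Avpr1a* UMI, by cluster over all plates with 95% exact binomial intervals (left) and by plate for clusters 1 and 12, clusters 2, 3 and 4 and the other PVH clusters (right, 1 line per plate). Clusters 1 and 13 stand at 49.3% and 50.0%, and clusters 2, 3 and 4 lie below clusters 1 and 12 on each plate.

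Depth bears on these shares, since the median cell held 183836 UMIs in cluster 1, 148984 in clusters 2, 3 and 4, and 74688.5 in cluster 13. Thinned to 63046 UMIs per cell, which left out 71 cells of the table, the share with *Avpr1a* was 33.3% in cluster 1, 5.10% in clusters 2, 3 and 4 and 60% in the 10 deep enough cells of cluster 13. In cluster 1 the unthinned share was 57.9% on the Q plates and 41.2% on the AL and JM plates, and 29.0% and 37.6% after thinning, so the order of the batches turned. The median PVH cell held 0 UMIs of this receptor at this depth, and a cell without a UMI is not shown to lack it.

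The remaining receptors were rare. *Oxtr* had a UMI in 10 of 706 cells, with 1 to 33 UMIs, all on AL and JM plates: cluster 12 held 3 of them, clusters 13 and 15 had 2 each, and the other 3 lay in cluster 11 outside the PVH. The highest, 33 UMIs or 213 CPM, was a cluster 13 cell on plate AL5. In cluster 1 it had a UMI in 0 of 221, so a share of up to 1.36% remained possible. *Avpr1b* was seen in 1 cell, with 18 UMIs, in cluster 15 on plate Q8, and *Avpr2* in 0 of 706, which allows up to 0.425%. The comparisons of these 3 genes between hormone clusters and other PVH clusters could not have passed, since at most 4 plates held a difference.

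Genes with the cluster pattern most like each member were named by the Pearson correlation of log2(mean CPM + 1) over the 12 PVH clusters, among 12577 genes. For *Oxt* these were *Cadps* (r = 0.90), *Cadps2* (0.88), *Mro* (0.85), *B3galt1* (0.84) and *Ephb2* (0.81), the first pair encoding activators of dense-core vesicle release. *Avp* was matched by *Kcnh1* (0.96), a potassium channel, *Bmp4* (0.95), *Bcl11b* (0.95), *Ficd* (0.91) and *Pdia3* (0.91), a disulfide isomerase of the endoplasmic reticulum. *Avpr1a* was matched by *Fmn1*, *4632404H12Rik* and *Clec16a* (each 0.90), *Inpp5a* (0.89) and *Fastkd2* (0.89). The clusters share libraries, and these values are descriptions chosen from many genes. Within cluster 1, the *Oxt* to *Avp* ratio had mean within-plate Spearman correlations of at most 0.32, for *S100a10*, and at least −0.34, for *Nek6*, over 5083 genes, which is weak at such counts.

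Secretory genes, which cut, amidate and pack the prohormones, differed between the hormone clusters and the rest in both directions. Here and in the lists that follow the deposited clusters were used, which were drawn from these counts. Genes that passed therefore describe the clusters and are no independent evidence. Of 11 tested in cluster 1, 3 passed edgeR's test as higher, 4 as lower and 4 did not pass (of all genes tested, 5.6% were higher and 6.3% lower), with a median log2 difference of −0.13 beside −0.08 over all genes tested. *Pam*, which amidates the ends of both hormones, stood at 798 ± 200 CPM in cluster 1 and 326 ± 80.5 in the other PVH cells (SD, n = 10), a log2 difference of 1.40 ± 0.10 (SE), with no overlap between plates. The prohormone convertase *Pcsk2* was at 44.1 ± 12.03 against 178 ± 57.2 CPM (−1.86 ± 0.13), and the granin *Scg2* at 113 ± 115 against 3687 ± 1452 CPM (−5.34 ± 0.52), both without overlap. *Vgf*, another granule precursor, was lower by 2.10 on the log2 scale (25.5 ± 23.1 against 90.9 ± 37.6 CPM), with overlap.

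In clusters 2, 3 and 4 the secretory list stood otherwise, with 5 of 11 higher, 2 lower and 4 not passing (of all genes 3.46% were higher and 5.71% lower), and a median of 0.24 beside −0.21 over all genes. *Pcsk2* was higher there, at 229 ± 90.5 against 106 ± 38.6 CPM (1.15 ± 0.13, higher on 10 of 10 plates), and *Pam* lower, at 316 ± 72.7 against 538 ± 105 (−0.75 ± 0.12). *Scg2* was lower as well, at 500 ± 202 against 2640 ± 1227 CPM (−2.30 ± 0.17). *Pcsk1*, the other convertase, was higher by 0.63 ± 0.19, a call that was lost on leaving out any of 8 of the 10 plates. The reference in each comparison holds the other hormone cells, so the comparisons are not independent of each other.

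Of the proteins that carry the receptors' signal, 12 of the 14 listed were tested. In cluster 1, 0 were higher, 2 lower and 10 did not pass (median −0.56 beside −0.08 over all genes, of which 5.6% were higher and 6.3% lower). The lower ones were *Gnas*, the Gs subunit, at 2217 ± 189 against 3537 ± 420 CPM (−0.56 ± 0.06, no overlap) and the arrestin *Arrb1* (−1.73 ± 0.34). In clusters 2, 3 and 4, 2 were higher, 1 lower and 9 did not pass (median −0.19 beside −0.21 over all genes, of which 3.46% were higher and 5.71% lower). Counts this small are no result about the list. *Gnas* there reached 5238 ± 480 against 2525 ± 284 CPM (1.09 ± 0.05, no overlap), the protein kinase C gene *Prkca* was higher (1.23 ± 0.27) and *Prkcb* lower (−2.20 ± 0.55).

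Among 9 regulators linked to the hormone neurons, 2 were higher in cluster 1, 1 lower and 6 did not pass (of all genes 5.6% and 6.3%). These counts are again too small to be a result about the list. *Nr3c1*, the glucocorticoid receptor, was at 6.54 ± 9.23 CPM against 104 ± 59.6 in the other PVH cells (−4.78 ± 1.19), though without plate Q7 or without plate JM8 the call was lost. *Caprin2*, which binds *Avp* mRNA, was higher (0.67 ± 0.15), as was the transcription factor *Pou3f2* (0.43 ± 0.11). Of the same 9 in clusters 2, 3 and 4, 5 were higher, 2 lower and 2 did not pass (of all genes 3.46% and 5.71%), with a median of 0.72 beside −0.21. *Caprin2* stood at 256 ± 76.3 against 94.1 ± 32.8 CPM (1.48 ± 0.14, higher on 10 of 10 plates), *Nr3c1* was lower (−4.16 ± 0.56), as was the oestrogen receptor *Esr2* (−4.08 ± 1.05), and *Creb3l1*, a factor known to act on *Avp*, was higher (2.18 ± 0.66) but lost its call without any of 7 of the 10 plates.

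Of 10 co-transmitters and magnocellular markers, 4 were higher in cluster 1, 3 lower and 3 did not pass (of all genes 5.6% and 6.3%). *Nos1*, which makes nitric oxide, was at 231 ± 57.3 against 68.0 ± 14.3 CPM (1.86 ± 0.12, no overlap), and *Th*, of catecholamine synthesis, was higher (1.15 ± 0.20). *Reln* (−7.18 ± 0.43) and the peptide *Cartpt* (−5.52 ± 0.60) were lower. In clusters 2, 3 and 4, 9 were tested, of which 2 were higher, 3 lower and 4 did not pass (of all genes 3.46% and 5.71%). *Pdyn*, the prodynorphin gene, was at 563 ± 254 against 131 ± 59.6 CPM (2.15 ± 0.09, no overlap). *Nos1* was at 30.5 ± 18.1 against 156 ± 39.6 CPM (−2.52 ± 0.30), and *Cartpt* (−6.93 ± 0.43) and *Reln* (−6.78 ± 0.63) were lower. The study names *Reln* and *Pdyn* among the marker genes of its clusters, so their differences are not independent of the clustering. By batch, over all PVH cells 9 of 43 tested members were higher on the Q plates and 8 lower (of all genes 11.6% and 11.1%), and in cluster 1 cells 4 of 40 were higher and 2 lower (of all genes 6.56% and 4.51%), counts near the background in cluster 1.

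Markers of other cells were counted in these groups. The summed level of 14 markers of glia, vessels and tanycytes was 72.7 ± 29.0 CPM in cluster 1 (SD, n = 10, 40.6 to 136) and 165 ± 64.6 in clusters 2, 3 and 4 (67.7 to 258), against 75.3 ± 12.4 in all PVH cells. Most of the sum in clusters 2, 3 and 4 was *Vim*, at 108.6 ± 58.7 CPM against 28.8 ± 7.12 in the other PVH clusters, and *Mbp*, at 52.6 ± 20.5 against 24.5 ± 7.66. *Olig2*, *Opalin*, *Pdgfra*, *Aif1*, *C1qa*, *Cldn5*, *Flt1* and *Rax* were at 0 there. *Mbp* had a UMI in 32.7% of PVH cells and *Vim* in 36.4%, the microglial *C1qa* and the tanycyte gene *Rax* in 0 of 664, and the other 10 in at most 9 cells each. The part of *Vim* and *Mbp* in the differences of clusters 2, 3 and 4 was not tested.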

How the data were processed

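The deposited table holds raw UMI counts per gene and well, made by the authors with the SMART-SCRB method. The submitters' processing notes name Trimmomatic 0.36, STAR 2.5.3a and the build GRCm38.p5, and the annotation and the UMI correction are not given in the sources used here. The labels describe a HiSeq and the methods a NextSeq; which plate had which is not stated. Cells, plates and clusters were taken from the deposited annotation, with no further filter and no doublet caller. Counts were summed per plate and side (at least 3 cells) and tested with edgeR 4.0.16 (R 4.3.3; TMM, filterByExpr, plate as a block; DESeq2 1.42.0 as an alternative), with Benjamini-Hochberg adjustment over all genes tested. Single values were tested by exact permutation over plates (scipy 1.17.1). Scripts were tested on simulated data. Exact binomial intervals (95%) and the limit of 3 counts where a count is 0 cover counting error only. Batches are the prefixes of the plate names. The same numbers name plates, not shared animals. Other genes were named by likeness over clusters, by correlation with the ratio, and, from 4 lists (secretory, receptor signalling, regulators, co-transmitters and magnocellular markers), as up to 4 members with the largest change past the threshold. Members and lists were chosen with earlier results of these data known. Protein sequences were not used here.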

Additional observations from a re-analysis of the deposited data

Results flagged for a closer look

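Of 40 groups of plate values examined, 9 had a plate far from the others. The limit used flags about 1 in 20 for independent, normally spread values. These groups share cells and some are skewed, so the count cannot be set against that rate. *Avp* stood apart on plate Q8, at 15085 CPM in cluster 1 and 29936 CPM over the PVH clusters, and on plate JM6 at 8364 CPM in cluster 10 and plate AL6 at 4653 CPM in cluster 12. *Oxt* stood apart at 1111 CPM in cluster 2 (plate Q5), 26356 CPM in cluster 3 (plate AL6) and 12922 CPM in cluster 4 (plate JM5). *Avpr1a* stood apart at 11.9 CPM in cluster 2, and the share of PVH cells high for both hormones at 13.04% on plate JM5.

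A further 174 wells lie outside both the annotated cells and the control columns. Of these, 14 were high for *Oxt* and 13 for *Avp* by the limit set from the control wells, 5 held *Avpr1a* and 1 held *Oxtr*. The high wells had totals of 11016 to 49608 UMIs, below the lowest total of an annotated cell, and lay on 6 plates. They entered no comparison.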

How the results depend on the processing

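Of 930 values recomputed, none that had passed its test turned its direction. *Avpr1a* between the batches, which had not passed, ran from −0.56 to 0.47 over all PVH cells without 1 plate (edgeR). The number of genes past the threshold for cluster 1, 1413, was 2213 with DESeq2, 764 with no replicate block, 226 with the Q plates by themselves, 747 with the other 6 plates, and 1163 to 1328 on leaving out 1 plate. For clusters 2, 3 and 4 the number, 1029, was 1927 with DESeq2, 565 with no replicate block, 79 on the Q plates alone, 154, 356 and 154 for clusters 2, 3 and 4 alone, and 835 to 1016 without 1 plate. The log2 difference of *Avp* in cluster 1, which has no test here, was −5.37 with the block and −2.77 without it (edgeR). *Avpr1a* in clusters 2, 3 and 4 passed with DESeq2 (adjusted p = 0.0033). The batch counts without 1 plate were 2737 to 3271 over PVH cells and 903 to 1292 in cluster 1. The *Oxt* to *Avp* ratio difference was −0.47 with a pseudocount of 10 (p = 0.124, exact permutation test) and −2.01 to −1.73 without 1 plate. The background differences were 2.99 to 3.65 (*Oxt*) and 4.46 to 4.89 (*Avp*) without 1 plate, and on the Q plates alone 1.78 and 5.06 (p = 0.125 each, exact, the smallest that 4 plates allow). Of 8 receptor comparisons, 2 passed, 1 when at least 3 UMIs were asked for (*Avpr1a* in clusters 2, 3 and 4 was lost), 0 with the Q plates and 0 with the AL and JM plates by themselves, where few plates limit the test, and 2 without any 1 plate. The cause of the other changes was not tested. The median cell held 0 UMIs of each receptor, at a median of 128672 UMIs per cell.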
